A study of Mus musculus with 12 samples.

Results

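The comparison described here sets marrow cells of wild-type mice taken 3 days after ICH against those taken after sham surgery. ICH is an abbreviation the labels leave unexplained and the field uses for intracerebral haemorrhage. It draws on 6 of the 12 libraries of the series, 3 from wild-type ICH and 3 from wild-type sham mice, and each result was computed on 5 of them, because wild-type sham replicate 1 was a failed reaction. The wild-type mice were male C57/BL6 animals, their age is not stated, and the series holds 6 mice of each genotype, 1 per library. The cells were sorted as HSCs (haematopoietic stem cells) by flow cytometry from femur marrow, straight into a reagent for total RNA, and the gate of the sort is not stated. The remaining 6 libraries came from Adrb3-/- mice, which lack the beta-3 adrenergic receptor, 3 after sham surgery and 3 after ICH. They entered the shared estimate of the spread and the test of whether the ICH difference depended on genotype. The level of Adrb3 was not analysed here, and the genotype labels are thus unchecked.

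Haematopoietic stem cells sit at the top of blood formation and give rise, through multipotent and lineage-committed progenitors, to neutrophils, monocytes, erythroid cells, platelets and lymphocytes. Sympathetic nerves reach the marrow and act there through beta-adrenergic receptors, the beta-3 receptor among them, which is known mainly from stromal niche cells. After injury elsewhere in the body the marrow is known to shift its output towards neutrophils and monocytes. Neutrophil maturation runs through a fixed order of granule genes, first the enzymes of the primary granules, then the proteins of the secondary and tertiary granules. The surface receptors of the mature cell come last.

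The files hold 754 genes. Each value is a signal equal to a whole number of counts times a factor of its library, and genes under 20 counts are listed at 20. The gene counts summed to 397224 and 556407 in the 2 sham libraries used and to between 349064 and 506130 in the 3 ICH libraries. Sham replicate 1 summed to 24775 counts, its strongest positive control gave 79 counts where the 5 other wild-type libraries gave 29123 to 44207, and 164 of its genes were under 20 counts. Its log2 values correlated with those of the other wild-type libraries at 0.0983 to 0.126. Genes were tested when their mean over the 11 sound libraries was above 52.2, the background set by the negative controls, which left 674 genes. 2 of these were listed at 20 in any of the 5 wild-type libraries. The label was checked first. S100a8 and S100a9, the calprotectin subunits of neutrophils, held between 43.9 and 54.0% of all gene counts in the 5 libraries. Kit, the receptor for stem cell factor that defines stem and progenitor cells, had values of 68.3 and 235 in sham and of 173, 131 and 87.5 in ICH. The 15 tested genes of mature neutrophils summed to between 236158 and 415278, and the 10 tested genes of stem and progenitor cells to between 3257 and 8744. No member of either list was at the floor. Nearly all of the neutrophil sum was calprotectin (S100a9 216327 and S100a8 190392 of 415278 in sham replicate 2), so it repeats the share above. Nr4a1 alone was 4109 of the 8744 in sham replicate 3. The values therefore describe cells sorted as HSCs in which transcripts of neutrophils, chiefly the calprotectin pair, made up much of the signal. In bulk RNA, fewer cells of a type and less RNA per cell cannot be told apart.

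No gene passed the test between wild-type ICH and sham. By limma on log2(value + 1), 0 of 674 genes had an adjusted p under 0.05 (0.0% of those tested), the smallest adjusted p was 0.9999, and 0 genes had an unadjusted p under 0.05. In a limma fit of the 5 wild-type libraries alone, 20 genes had an unadjusted p under 0.05 and again 0 passed after adjustment. With the failed library included, the count remained 0. The log2 differences, given throughout as ICH minus sham, ran from -1.51 to 1.79 with a median of -0.11. The 95% interval reached, at the median gene, 0.89 to either side of the estimate, and 274 genes (40.7%) had an interval that lay within 1 log2 unit of no difference. For the other genes a difference of 1 log2 unit in some direction was within the interval. In the fit of the wild-type libraries alone the interval reached 0.67 to either side at the median gene, and 451 genes had it within 1 log2 unit.

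The estimates leaned to one side. Of the 674 genes, 483 (71.7%) had a negative difference. The ICH libraries lay wholly below both sham libraries in 95 genes (14.1%) and wholly above them in 21 genes (3.12%). This split depended on scaling: with each library centred on its median, 47.5% of the genes had a negative difference, 46 (6.82%) were lower in all ICH libraries and 43 (6.38%) higher. With quantile normalization 50.1% were negative, 56 (8.31%) were lower and 60 (8.90%) higher. Both scalings give each library the same centre, so a near-even split of signs follows from them. They therefore cannot decide whether the lean of the deposited values is real. The 20 genes taken as the panel's references had a median difference of -0.04, and 11 of them were negative. Their geometric mean was 436.6 in each of the 5 wild-type libraries used, so the deposited values appear scaled to them. Their balance thus follows from the scaling and is no check on it.

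Genes of neutrophils and other phagocytes were among those lower without overlap. The plot of 12 genes by library shows the order of the values given next. S100a9, a subunit of calprotectin, had signals of 216327 and 206949 in sham and of 112682, 138745 and 121585 in ICH. The means were 211638 ± 6631 (SD, n = 2) and 124337 ± 13248 (SD, n = 3), and the sham libraries differed from each other by much less than from any ICH library. The log2 difference was -0.77 (SE 0.48, 95% interval -1.84 to 0.29, limma adjusted p = 0.9999), and it was -0.18 under quantile normalization. S100a8, its partner, stood at 190392 and 191288 in sham against 116882, 150597 and 142839 in ICH. Its difference was -0.49 (SE 0.56), and it was -0.37 with median centring. These 2 genes had the highest means of all tested genes, and quantile normalization gives every library the same top values. The -0.18 and 0.18 of the pair under it thus record only that S100a9 was the higher in sham and S100a8 in ICH. They cannot show the direction of either gene.

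**Figure D1:**
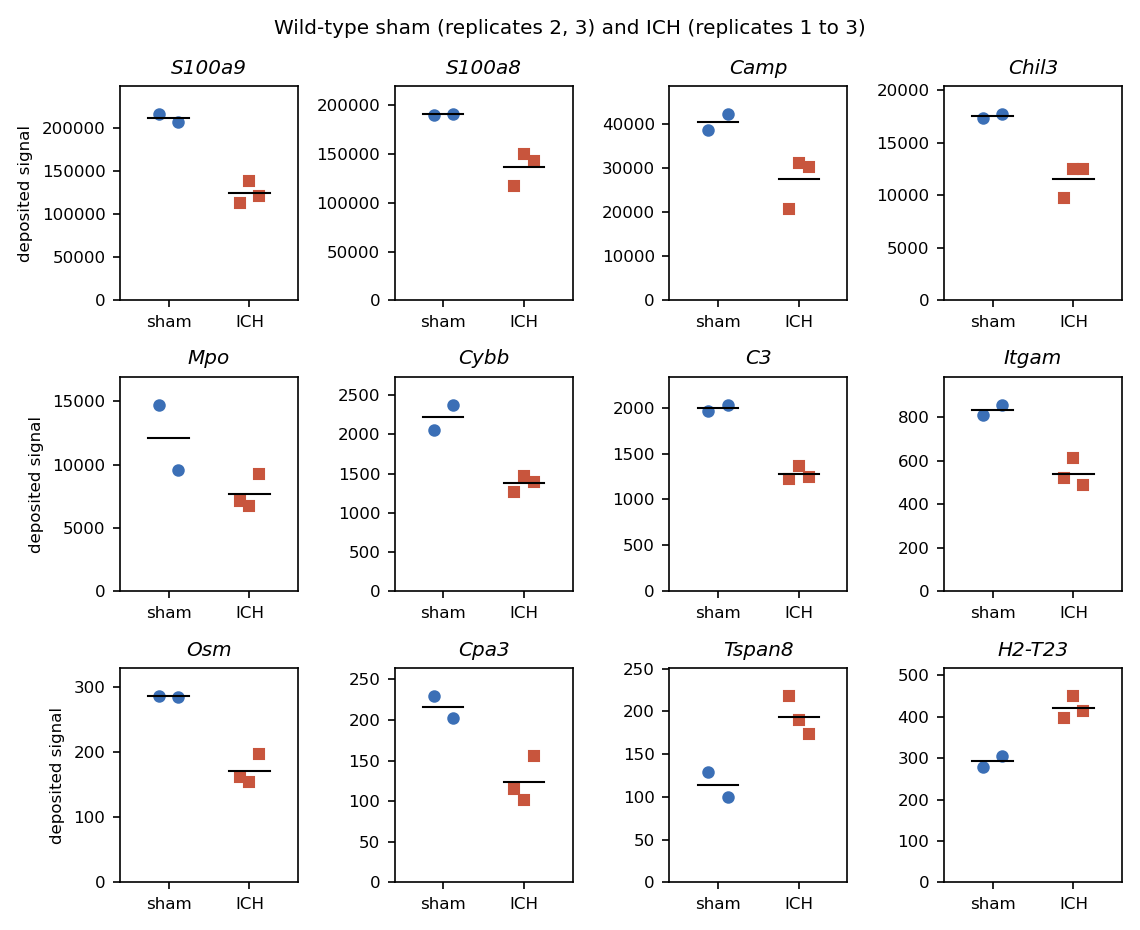
Deposited signal (vertical axes, each from 0) of 12 genes in the wild-type libraries, with circles for sham replicates 2 and 3, squares for ICH replicates 1 to 3 and a line at each group's mean. In 10 panels each ICH library lies below both sham libraries, and in the panels of Tspan8 and H2-T23 each lies above them. All 12 are genes without overlap, picked with their values known. Over all tested genes 14.1% were lower and 3.12% higher without overlap. Overlapping members of the same lists, such as Elane, Ctsg, Mmp8 and Mmp9, are not shown.

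Together S100a8 and S100a9 held 54.0 and 52.4% of the gene counts in the sham libraries and 43.9, 49.6 and 46.7% in the ICH libraries. The Wilson 95% intervals cover counting error only and were narrow, for example 53.8 to 54.1% in sham replicate 2. Each ICH share lay below both sham shares. The means were 53.2 ± 1.12% (SD, n = 2) and 46.7 ± 2.88% (SD, n = 3), a difference of -6.42 percentage points. An exact two-sided permutation test gave p = 0.2, the smallest value that 2 against 3 libraries allow. A share does not depend on the scaling of a library. In the failed library the share was 1.32%, and with it the difference became 10.9 points (exact permutation p = 1.0). The 250 bases before the start of S100a9 are shown because this gene had the lower difference of the pair, with a match to TTGCNNAA, the core letters bound by C/EBP factors of the myeloid lineage, in capitals.

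S100a9: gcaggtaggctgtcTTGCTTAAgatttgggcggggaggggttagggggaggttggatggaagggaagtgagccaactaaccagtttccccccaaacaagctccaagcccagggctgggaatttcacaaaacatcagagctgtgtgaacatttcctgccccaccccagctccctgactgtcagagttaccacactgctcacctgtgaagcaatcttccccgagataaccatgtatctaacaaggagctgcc

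This stretch lies on the minus strand at chr3:90695722-90695971 (RefSeq, GRCm38.p6), and the match begins 236 bases before the start. The letters were searched on both strands. They occur in the same window of 9.56% of the 32851 promoters in the RefSeq table and of 3 of the 14 mature neutrophil genes that could be matched (Fcgr3, Ly6g and S100a9). A match is a description of letters and shows no binding.

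Among secondary and tertiary granule genes the sham libraries were close to each other, with a median gap of 0.06. Of 6 tested genes, 5 had a negative difference, the median was -0.60 against -0.11 over all tested genes, and in 4 (66.7%) the ICH libraries lay below both sham libraries, against 14.1% of all tested genes. No member passed the test. Camp, the cathelicidin antimicrobial peptide of the secondary granules, had values of 38611 and 42198 in sham and of 20731, 31142 and 30308 in ICH (log2 difference -0.58, SE 0.48). Chil3, a chitinase-like protein, had 17353 and 17720 against 9756, 12461 and 12536 (-0.61). Both genes were lower in each ICH library, with the sham libraries close together. Cybb, the membrane subunit of the NADPH oxidase that makes superoxide, stood at 2057 and 2372 in sham and at 1263, 1473 and 1397 in ICH (-0.68, SE 0.44, limma adjusted p = 0.9999). Itgam, the alpha chain of the CR3 integrin, had 808 and 855 against 521, 611 and 488 (-0.63, SE 0.50). For these also the lowest sham library was above the highest ICH library. Mmp8 and Mmp9, the collagenase and gelatinase of the later granules, overlapped between groups, with differences of -0.17 and 0.10. With median centring the list's median was -0.48 and the same number of genes, 4, did not overlap, against 6.82% of all tested genes. With quantile normalization the median was 0.00 and 2 genes did not overlap, against 8.31%. Camp was at 0.00 there, because a gene that keeps its rank is given the same value in each library. That median thus cannot show a change in the highest genes of the list. Without sham replicate 2 or without sham replicate 3 the list's median on the deposited values was -0.63 and -0.55.

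Among genes of the primary granules, which form first, Mpo, the myeloperoxidase, had values of 14706 and 9545 in sham and of 7122, 6743 and 9246 in ICH. Its highest ICH value was near the lower sham value, and the difference was -0.63 (SE 0.42). Ctsg, cathepsin G, had 4344 and 2519 against 1767, 1705 and 2593 (-0.74), and Elane, neutrophil elastase, had 6154 and 5093 against 4054, 4256 and 5646 (-0.28). In these last 2 the groups overlapped. With quantile normalization the differences were -0.24 for Mpo, -0.47 for Ctsg and 0.05 for Elane, and under either scaling none of the 3 was without overlap. In sham replicate 2 each of the 3 enzymes was higher than in sham replicate 3.

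Of 15 tested genes of mature neutrophils, 12 had a negative difference, with a median of -0.33, and 7 had non-overlapping groups. That is 46.7% of the list, against 14.1% of all tested genes, of which 71.7% were negative. Beside the calprotectin genes these were Fpr2, Il1r2, Ly6g, Fcgr3 and Pglyrp1. Ly6g, the surface antigen that marks mouse neutrophils, had values of 727 and 693 in sham and of 476, 597 and 509 in ICH. Pglyrp1, a peptidoglycan-binding protein of neutrophil granules, had 3376 and 2561 against 1895, 2349 and 2356. Il1r2, the decoy receptor for interleukin 1, had 205 and 339 against 184, 135 and 185. Cxcr2, a receptor that guides mature neutrophils, and Csf3r, the receptor for the granulocyte growth factor, did not share this order. Cxcr2 had 304 and 217 in sham against 353, 302 and 198 in ICH, and Csf3r had 448 and 537 against 593, 555 and 429. Their differences were 0.10 and 0.09. With median centring 2 of the 15 genes did not overlap, with quantile normalization 1 was lower and 4 were higher, so the count for this list rested on the deposited scaling.

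Some genes of phagocyte signalling and adhesion were also lower without overlap. Pik3cg, the catalytic subunit of the PI3 kinase coupled to chemokine receptors, had values of 302 and 444 in sham and of 263, 255 and 248 in ICH (log2 difference -0.52, SE 0.25). Vav1, an exchange factor for Rac, had 645 and 738 against 513, 543 and 561 (-0.36). Itgb2, the beta chain shared by leukocyte integrins, had 1089 and 876 against 794, 850 and 742 (-0.30). In each of these genes the ICH values lay below both sham values, and none passed the test.

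Among 13 tested complement and Fc receptor genes the median difference was -0.10, with 5 lower and 1 higher without overlap, against 14.1% lower and 3.12% higher over all tested genes. With median centring 3 were lower, against 6.82%. C3, the central complement component, had values of 1964 and 2028 in sham and of 1218, 1363 and 1240 in ICH. Its means were 1996 ± 45.1 (SD, n = 2) and 1273 ± 78.1 (SD, n = 3), a gap far wider than the spread within either group, and the log2 difference was -0.65 (SE 0.36, 95% interval -1.44 to 0.14, limma adjusted p = 0.9999). That SE came from all 4 groups, and in the fit of the wild-type libraries alone it was 0.21. Fcgr2b, the inhibitory IgG receptor, had 583 and 560 against 457, 418 and 381 (-0.45), and C5ar1, the receptor for the anaphylatoxin C5a, had 520 and 555 against 449, 408 and 452 (-0.30). Fcer2a, the low-affinity IgE receptor, went the other way, with 62.6 and 61.5 in sham and 90.1, 68.0 and 82.7 in ICH.

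**Figure D2:**
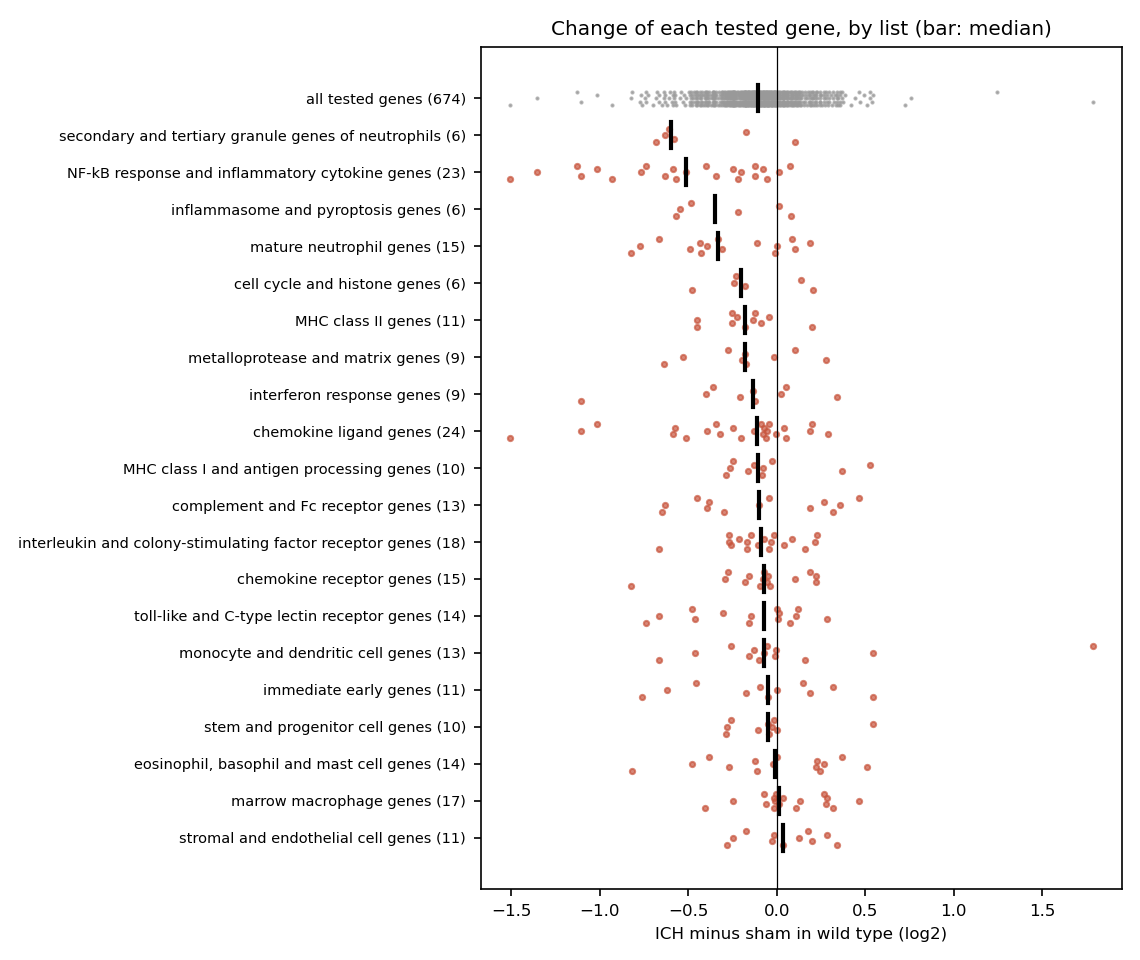
Log2 difference between wild-type ICH and sham (horizontal axis) of each tested gene, in rows for lists with at least 5 tested genes, with the number of genes in brackets and a bar at the median; all 674 genes are in the top row. The granule genes (median -0.60) and the inflammatory genes (-0.51) lie furthest to the left, against -0.11 for all tested genes.

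Inflammatory genes had negative differences nearly throughout, but here the sham libraries disagreed with each other. NF-kB is the transcription factor that turns on cytokines, chemokines and its own inhibitors within hours of a stimulus. Of 23 tested genes of its response and of inflammatory cytokines, 21 had a negative difference, with a median of -0.51, and 4 (17.4%) had ICH values below both sham values, against 14.1% of all tested genes. With either median centring or quantile normalization 2 did. Cxcl2, a chemokine for neutrophils, had values of 93.0 and 696 in sham and of 79.2, 58.8 and 151 in ICH, so sham replicate 2 lay among the ICH libraries and sham replicate 3 far above them. Its difference of -1.51 was the lowest of all tested genes, with an SE of 1.04 and a 95% interval from -3.82 to 0.81. Cxcl10, a chemokine for T cells, had 140 and 555 against 181, 79.5 and 149 (-1.11). Ccl3, a chemokine for monocytes, had 526 and 2245 against 460, 521 and 645 (-1.02). The same order held for Tnfaip3 and Nfkbiz, inhibitors of the pathway, with 353 and 1565 and with 378 and 1491 in sham and at most 499 and 436 in ICH. In 18 of the 23 genes sham replicate 3 was above sham replicate 2, with a median gap of 0.81, while over all tested genes it was above in 39.6%. Without sham replicate 3 the median difference of the list was -0.07, and without sham replicate 2 it was -0.97, with Ccl3 at 0.03 and -2.06. With centring it was -0.39 and with quantile normalization -0.37.

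The bases before the start of Cxcl2 and Cxcl10, the chemokines with the lowest differences, are shown with their match to letters typical of an NF-kB site (GGGA, any base, TT, any base, CC) in capitals.

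Cxcl2: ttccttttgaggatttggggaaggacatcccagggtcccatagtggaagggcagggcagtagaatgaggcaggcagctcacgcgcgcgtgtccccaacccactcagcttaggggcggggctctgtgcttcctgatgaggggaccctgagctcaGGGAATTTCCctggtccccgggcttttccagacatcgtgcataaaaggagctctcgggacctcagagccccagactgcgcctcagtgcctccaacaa

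Cxcl10: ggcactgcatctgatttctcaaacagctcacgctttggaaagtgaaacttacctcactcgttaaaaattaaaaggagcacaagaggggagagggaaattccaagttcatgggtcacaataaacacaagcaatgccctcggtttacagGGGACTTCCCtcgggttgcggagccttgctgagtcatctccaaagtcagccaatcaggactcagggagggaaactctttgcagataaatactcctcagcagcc

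Both stretches are 250 bases long (RefSeq, GRCm38.p6), at chr5:90903649-90903898 on the plus strand and at chr5:92348890-92349139 on the minus strand, and the matches begin 97 and 103 bases before the start. On both strands searched, the letters occur in this window of 322 of 32851 promoters (0.98%) and of 5 of the 15 genes of the list that could be matched, namely Cxcl10, Cxcl2, Il6, Nfkbia and Tlr2. A match shows no binding.

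In 4 genes of the list the ICH libraries lay below both sham libraries. Ptgs2, the inducible cyclooxygenase, had values of 116 and 458 in sham and of 93.8, 88.7 and 85.9 in ICH (log2 difference -1.36, SE 0.78). Acod1, which makes itaconate in activated phagocytes, had 169 and 445 against 139, 89.9 and 156 (-1.13, SE 0.53, limma adjusted p = 0.9999), and Tlr2, the receptor for bacterial lipoproteins, had 222 and 409 against 185, 165 and 191 (-0.74, SE 0.36). In all 3 the ICH values lay under sham replicate 2, which was itself well below sham replicate 3. Ccl2, the chemokine that calls monocytes out of the marrow, had 222 and 215 against 189, 127 and 149, with the sham libraries close together. Osm, oncostatin M, a cytokine of neutrophils and macrophages, behaved like Ccl2 and not like Ptgs2, with 287 and 286 in sham and 162, 154 and 198 in ICH (-0.74, SE 0.38). Gadd45b, an NF-kB and stress target, had 150 and 249 against 133, 127 and 98.9.

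Genes of the inflammasome, the complex that activates interleukin 1, had a median of -0.35 over 6 tested genes. Casp1, its protease, had values of 279 and 318 in sham and of 228, 228 and 186 in ICH (log2 difference -0.48, SE 0.23). Nlrp3, its sensor, had 224 and 325 against 220, 189 and 151 (-0.55), so its highest ICH value was close to the lower sham value. Il1b, its substrate, overlapped, with 440 and 768 against 323, 324 and 572. Casp1 was among the 5 genes with the smallest unadjusted p, together with Acod1, Zmpste24, Irf8 and Fem1c. Zmpste24, the protease that matures prelamin A, had 287 and 328 in sham and 222, 219 and 196 in ICH (-0.53, SE 0.25), with all ICH values below both sham values. Fem1c, a receptor of a ubiquitin ligase, had 269 and 437 against 292, 206 and 203.

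Irf8 had the highest log2 difference, 1.79 (SE 0.86, 95% interval -0.11 to 3.69), and it rested on 1 library. Irf8 is the transcription factor that directs progenitors towards monocytes and dendritic cells and away from neutrophils. Its values were 304 and 20 in sham, the latter a gene listed at the floor, and 318, 208 and 313 in ICH. Sham replicate 2 thus lay within the ICH range. Without sham replicate 3 the difference was -0.14. Without sham replicate 2 the fit gave 3.71 (limma adjusted p = 0.0171), but against a single sham library listed at the floor, where the level was not measured, so this is not a measured change. The other genes of monocytes and dendritic cells did not share its pattern. Csf1r, the receptor for the macrophage growth factor, had 366 and 261 in sham against 418, 341 and 290 in ICH, and Ccr2, the receptor for Ccl2, had 592 and 620 against 715, 625 and 360. The median of the 13 tested genes was -0.07. Cd14, the co-receptor for lipopolysaccharide, and Batf3, a factor of dendritic cells, were lower in each ICH library, with 195 and 224 against 162, 113 and 125 for Cd14.

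Immediate early genes, which respond to stimuli and to handling of cells within minutes, had a median difference of -0.05 over 11 tested genes, 6 of them negative. None had non-overlapping groups. Nr4a1, an orphan nuclear receptor induced by cAMP and by many other signals, had values of 294 and 4109 in sham and of 2069, 1980 and 1013 in ICH. Jun, a subunit of AP-1, had 774 and 2482 against 701, 797 and 974. Atf3, a stress-induced factor, had 192 and 989 against 287, 279 and 284. For Nr4a1 the ICH libraries lay between the sham libraries, and for Jun and Atf3 they lay near sham replicate 2. Sham replicate 3 was above replicate 2 in 10 of the 11 genes, with a median gap of 1.35. The sign of the list turned with the sham library used: its median was 0.55 without sham replicate 3 and -0.99 without sham replicate 2. Jun and Atf3 had 0.08 and 0.56 without sham replicate 3.

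The gap between the sham libraries was wider than the ICH difference in 486 genes (72.1%). On the log2 scale the sham libraries correlated at 0.898, the ICH libraries with each other at 0.958 to 0.976, and sham with ICH libraries at 0.929 to 0.962. The sham pair thus had the lowest correlation among the 5 libraries. The sham libraries differed by more than 1 log2 unit in 86 genes, 42 higher (6.23%) and 44 lower (6.53%) in replicate 3. The most separated were Irf8, Nr4a1, Cxcl2, Rgs1 and Ear6. Rgs1, which dampens signals of chemokine receptors, had 116 and 858 in sham and 206, 173 and 194 in ICH. Ear6, an eosinophil ribonuclease, had 691 and 102 against 268, 207 and 955. In each of these 5 genes at least 1 ICH library lay between the sham values.

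**Figure D3:**
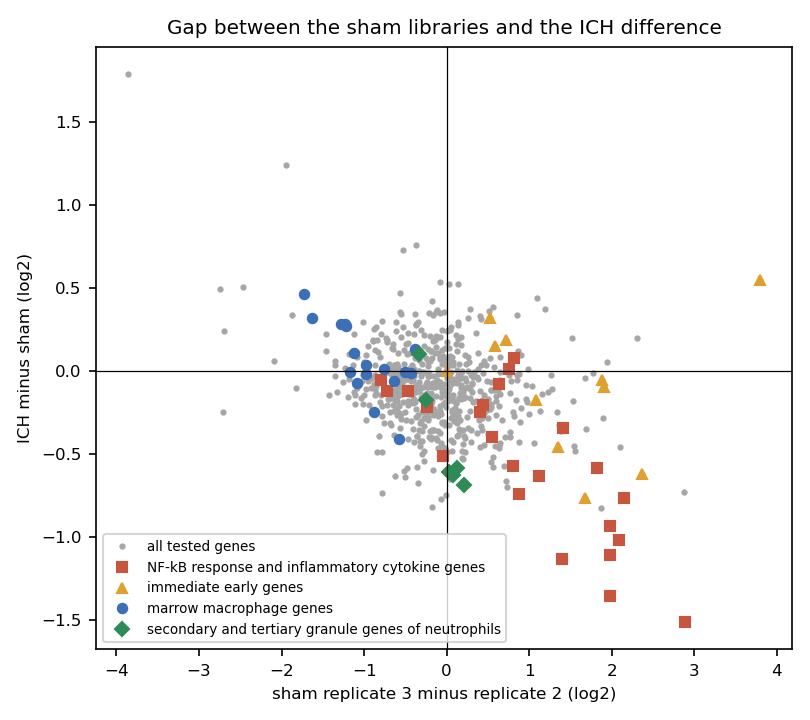
Each point is a tested gene, with the log2 gap between sham replicates 3 and 2 on the horizontal axis and the log2 ICH difference on the vertical axis; 4 lists are coloured. Inflammatory and immediate early genes spread to the right (median gaps of 0.81 and 1.35), macrophage genes lie to the left (-0.98), and granule genes lie near no gap (0.06) with differences around -0.60.

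Genes of stem and progenitor cells differed widely between the sham libraries. Of 10 tested genes, 9 had a negative difference, but the median was -0.05 and none had non-overlapping groups. With centring 3 of the 10 were negative and the median was 0.07. Cd34, a surface antigen of progenitors, had values of 266 and 987 in sham and of 507, 430 and 342 in ICH. Gata2, a transcription factor that stem cells need, had 137 and 440 against 325, 217 and 191. Flt3, the receptor of multipotent progenitors, had 150 and 301 against 229, 169 and 144. As with Kit, at least 2 of the ICH libraries lay between the sham libraries. In 9 of the 10 genes sham replicate 3 was above replicate 2, with a median gap of 1.14. The differences were -0.01 (SE 0.97) for Kit, -0.28 (SE 0.75) for Cd34 and -0.26 (SE 0.48) for Flt3, and the interval of Kit, -2.16 to 2.14, leaves changes in either direction undetectable here. Cxcr4, the receptor that holds cells in the marrow, was close in the 5 libraries, with 520 and 548 in sham against 449, 530 and 574 in ICH. Without sham replicate 3 the median of the list was 0.47, and without sham replicate 2 it was -0.75.

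Genes that present peptides on MHC class II had the same gap. Of 11 tested genes 10 had a negative difference, with a median of -0.18 and no gene without overlap. H2-Aa, a class II chain, had values of 746 and 2171 in sham and of 1063, 1014 and 749 in ICH. Cd74, the invariant chain, had 1034 and 2968 against 1865, 2343 and 1865. For both genes the ICH libraries lay between the sham libraries, and the list's median was 0.22 without sham replicate 3 and -0.56 without sham replicate 2. Among 10 class I and antigen-processing genes the median was -0.11, turned to 0.01 by centring, and H2-T23, a nonclassical class I gene that encodes Qa-1, stood out as higher. It had 279 and 306 in sham and 398, 450 and 415 in ICH, with means of 293 ± 19.2 (SD, n = 2) and 421 ± 26.7 (SD, n = 3) and a log2 difference of 0.52 (SE 0.27, 95% interval -0.07 to 1.11, limma adjusted p = 0.9999). H2-K1 and H2-D1, the classical chains, had no such order, with 2408 and 6069 in sham and 3464, 3352 and 2862 in ICH for H2-K1.

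Other genes were higher in all ICH libraries than in both sham libraries, 21 in total. Tspan8, a tetraspanin of the cell surface, had values of 129 and 99.8 in sham and of 218, 190 and 173 in ICH, means of 114 ± 20.7 (SD, n = 2) and 194 ± 22.5 (SD, n = 3). Its log2 difference of 0.76 was the highest among these genes (SE 0.38, 95% interval -0.09 to 1.61, limma adjusted p = 0.9999). Tnfrsf14, the receptor HVEM, had 271 and 276 against 386, 415 and 384 (0.53, SE 0.60), with the libraries of each group close together. Ctsl, the lysosomal cathepsin L, had 85.4 and 80.6 against 110, 119 and 136 (0.54, SE 0.49). Prdx3, a mitochondrial peroxidase, had 465 and 426 against 536, 582 and 596 (0.36, SE 0.23). Gata1, the master factor of erythroid cells, megakaryocytes, eosinophils and mast cells, had 127 and 118 against 167, 141 and 169 (0.37, SE 0.27). Id3, an inhibitor of E proteins, had 91.1 and 80.6 against 163, 95.6 and 97.2, where a single ICH library stood apart. These directions were kept under median centring and quantile normalization. With the failed library in the fit the differences of Tspan8, Id3 and Fcer2a became -0.11, -0.37 and -0.48.

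Markers of other cells that a marrow sort could hold were read in the same libraries. Of 17 tested marrow macrophage genes, 9 had a positive and 8 a negative difference, with a median of 0.01 and none without overlap. The C1q chains and Vcam1, which marks macrophages of the marrow that tend blood formation, had differences of 0.27 to 0.46, with C1qa at 748 and 225 in sham and at 458, 509 and 783 in ICH. All 17 were lower in sham replicate 3 than in replicate 2, and the summed values of the list ran from 3235 to 6509 in sham and from 4601 to 5864 in ICH. The median of the list was -0.40 without sham replicate 3 and 0.48 without sham replicate 2. Of 14 genes of eosinophils, basophils and mast cells, 7 were positive and 7 negative. Prg2, the major basic protein of eosinophils, had 5718 and 1036 in sham and 2751, 2221 and 6784 in ICH, and Epx, the eosinophil peroxidase, had 607 and 92.9 against 213, 156 and 673. Sham replicate 2 and ICH replicate 3 were thus high in eosinophil genes and the other 3 libraries lower. Cpa3, a carboxypeptidase of mast cells that progenitors also express, did not follow them, with 230 and 202 in sham and 114, 101 and 156 in ICH (log2 difference -0.82, SE 0.57). Of 11 stromal and endothelial genes 6 were positive, with a median of 0.04, and Cxcl12, the stromal chemokine that retains stem cells, had 1068 and 163 against 320, 333 and 407. Whether the cell makeup of the sorted samples had a part in the gene differences above was not tested.

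**Figure D4:**
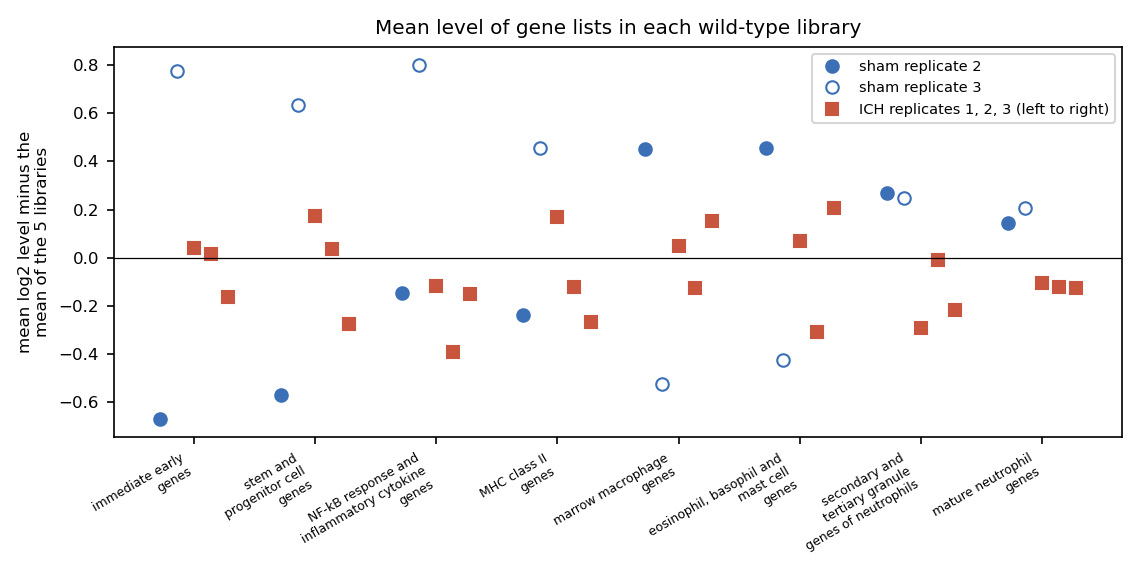
Mean log2 level of 8 gene lists in each wild-type library, as the difference from the mean of the 5 libraries, with a filled circle for sham replicate 2, an open circle for sham replicate 3 and squares for ICH replicates 1 to 3. The sham libraries lie at opposite ends for the immediate early, progenitor, macrophage and eosinophil lists, and together above the ICH libraries for both neutrophil lists.

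Most of the remaining lists had medians close to that of all tested genes. Over 9 interferon response genes it was -0.14. Over 14 toll-like and C-type lectin receptor genes it was -0.07, with 4 lower without overlap (Tlr2, Cd14, Clec7a and Clec5a), against 14.1% of all tested genes. Over 24 chemokine ligand genes it was -0.11, over 15 chemokine receptor genes -0.07, and over 18 receptors for interleukins and growth factors -0.09. Of 6 cell cycle genes, Top2a, the topoisomerase of dividing cells, was lower in each ICH library, with 1903 and 1715 against 1537, 1512 and 1572, and Mcm5, a subunit of the replicative helicase, was higher, with 867 and 821 against 919, 918 and 1086. Their differences of -0.23 and 0.20 had intervals within 1 log2 unit of no difference, and that of Top2a turned to 0.06 with quantile normalization. Erythroid and megakaryocyte genes, genes of B, T and NK cells and adrenergic and cAMP genes were measured by 3, 3 and 4 tested genes, of which none passed the test. The median was -0.34 for erythroid and megakaryocyte genes and -0.20 for cell cycle genes, both lower than that of all tested genes.

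The same difference in Adrb3-/- mice was compared through the interaction, wild type minus Adrb3-/-. By limma 0 of 674 genes had an adjusted p under 0.05 (0.0%), the smallest adjusted p was 0.454, and 29 genes had an unadjusted p under 0.05. The 5 genes with the smallest unadjusted p, Mrc1, Apoe, Vcam1, Mertk and Hpgds, belong to the macrophage list. For Mrc1, the mannose receptor, the difference was -0.07 (SE 0.42) in wild type and -2.54 in Adrb3-/-, with an interaction of 2.47 (SE 0.56). For Apoe, the apolipoprotein of lipid-handling macrophages, it was -0.01 (SE 0.30) and -1.74, with an interaction of 1.73 (SE 0.41). For Vcam1 it was 0.29 (SE 0.53) and -2.61. In Adrb3-/- ICH replicate 2, 243 genes were under 20 counts and 20 counts equalled a value of 103, so a gene listed at 20 there, as Mertk and Hpgds were, may have had any level up to 103, and its Adrb3-/- difference can be overstated. Over the 17 macrophage genes the median difference was 0.01 in wild type and -1.96 in Adrb3-/-. For the 6 secondary and tertiary granule genes the medians were -0.60 and 0.80, and for the 15 mature neutrophil genes -0.33 and 0.55. S100a9 had -0.77 in wild type and 0.75 in Adrb3-/-, an interaction of -1.53 (SE 0.64, limma adjusted p = 0.888). In Adrb3-/- sham, S100a9 stood at 172863, 124702 and 45115, and in Adrb3-/- ICH at 221187, 146397 and 144150. Adrb3-/- sham replicate 3 was thus far below the others, and its calprotectin share was 23.2%, against 49.4 and 44.3% in replicates 1 and 2. The Adrb3-/- medians include this library. The neutrophil medians differ in sign between the genotypes, but no gene's interaction passed the test, so a difference between the genotypes was not shown.

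**Figure D5:**
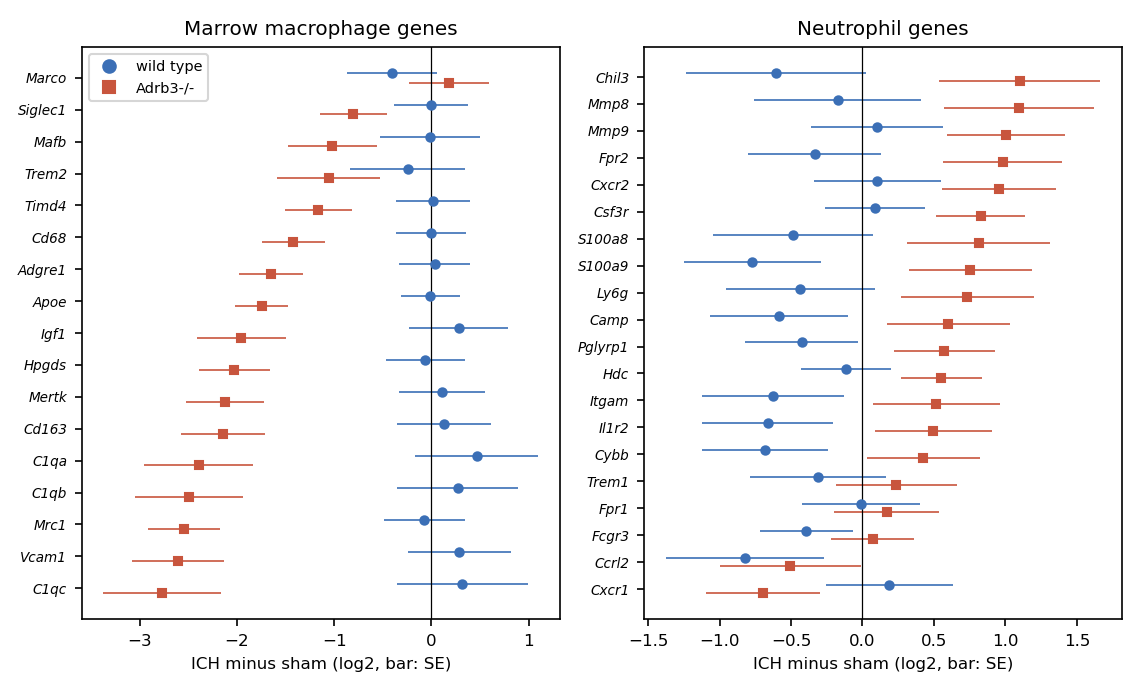
Log2 difference between ICH and sham (horizontal axis, bar: SE) in wild type (circles) and Adrb3-/- (squares) for the 17 tested macrophage genes and for tested neutrophil genes of the granule and mature lists. Wild-type macrophage genes lie around 0 (median 0.01) and those of Adrb3-/- mice at a median of -1.96, and many neutrophil genes lie on opposite sides of 0; no interaction passed the test.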

How the data were processed

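The deposited signal values form 1 table of 754 genes, 8 negative and 6 positive control probes in 12 libraries. Per the labels, total RNA came from cells sorted into a lysis reagent. The instrument, panel and scaling method are not stated. From the values themselves, each gene signal is a whole number of counts times a factor of its library (7825 of 7825 values up to 1000 counts, within 0.01), floored at 20, and the control probes are unscaled. Counts behind floored values are unknown, which bars a count model, and depth enters only through the count sums given above. Of the symbols, 744 are current and 9 older names in the RefSeq table of GRCm38.p6.

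With wild-type sham replicate 1 left out, a gene entered the test if it averaged more than 52.2 over the 11 remaining libraries. That background is the negative controls' mean with 2 SD added, scaled per library and averaged, and it removed 80 genes. The 4 groups were then fitted as means on log2(value + 1) with limma 3.58.1 in R 4.3.3 (lmFit, eBayes), two-sided, and p-values were adjusted by Benjamini-Hochberg over 674 genes with a threshold of 0.05. Since levels are logged after adding 1, the changes of low genes are slightly understated. A gene was counted as non-overlapping when all ICH libraries lay on 1 side of both sham libraries. The share of S100a8 and S100a9 was taken over the recovered counts and tested by exact permutation (scipy 1.17.1). The test was checked on simulated data.

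Genes were named by rule: those called, the 8 highest and 8 lowest changes without overlap and with at least 20 counts in each library of the higher group, the 5 smallest p-values of the comparison and of the interaction, up to 3 genes of each list by p, the marker genes of the label, and the 5 widest sham gaps. Other list members are given to describe a list and were picked once their values were known. The comparison, the lists and the tests were chosen with earlier results of these data known, so no pattern is independent support. Alternatives were other filters, pseudocounts, floors, scalings and variance models, the wild-type libraries alone, all 12 libraries, a replicate block, and leaving out each library in turn. A few results are not reported here.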

Additional observations from a re-analysis of the deposited data

How the results depend on the processing

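The count of genes past the adjusted threshold between wild-type ICH and sham was 0 in limma under each alternative but 1. Leaving out 1 library at a time gave 0 to 1, the 1 being Irf8 without wild-type sham replicate 2, where the remaining sham value is at the floor. The interaction also gave 0 to 1, Irf8 without that library (4.35) and Serpinb9 without Adrb3-/- ICH replicate 3 (2.44). Genes lower in all ICH libraries numbered 46 with median centring, 56 with quantile normalization, 50 with 12 libraries and 100 to 253 with 1 library left out. Genes higher numbered 43, 60, 7 and 31 to 138 in the same order. Fewer libraries make non-overlap easier by construction. The highest of the lower counts was without ICH replicate 1, and the highest of the higher counts without sham replicate 2. Genes whose 95% interval lay within 1 log2 unit numbered 40 with 12 libraries, 451 with the wild-type libraries alone, 470 with quantile normalization and 112 (without wild-type sham replicate 2) to 380 (without Adrb3-/- ICH replicate 2) with 1 library left out.

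The failed library turned the direction of many named genes. With it the calprotectin share differed by 10.9 percentage points, and the log2 differences were 1.33 for S100a9, 1.61 for S100a8, 1.37 for Camp, 1.01 for Mpo, 0.67 for Elane and 0.17 for Cybb. Also turned to positive were Fem1c (0.77), Batf3 (0.76), Nkg7 (1.14), Dusp1 (0.23), Clec7a (0.78), H2-DMa (0.80), Cd80 (0.64), Tap1 (1.08), Ccr9 (0.86), Fcgr2b (1.14), Top2a (1.91), Ccnb2 (1.30), Txn1 (0.30), Mrc1 (1.13) and Kit (0.86). Turned to negative were Tspan8 (-0.11), Id3 (-0.37), Fcer2a (-0.48), Igf1 (-0.73), Gzma (-0.64), Il1rl1 (-0.31) and Cd163 (-0.30). Median centring turned Ms4a1 (0.019), Mrc1 (0.047), Apoe (0.10), Hpgds (0.057) and Kit (0.11) to positive. Quantile normalization turned Elane (0.047), Ms4a1 (0.091), Top2a (0.063), Mrc1 (0.026), Apoe (0.19), S100a8 (0.18) and Kit (0.28). The value of S100a8 under quantile normalization reflects only its order against S100a9. Other causes were not tested.

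Leaving out 1 library at a time gave ranges that crossed 0 for 25 of the 85 named genes. The lowest and highest were -0.14 and 3.71 for Irf8, -0.76 and 0.24 for Flt3, -1.35 and 2.45 for Nr4a1, -1.76 and 0.11 for Ccrl2, -0.40 and 1.33 for C1qa, -0.33 and 0.90 for Igf1, and -0.26 and 0.054 for Ms4a1. They were -0.35 and 0.92 for Vcam1, -1.60 and 0.077 for Jun, -1.13 and 0.22 for Dusp1, -1.80 and 0.56 for Atf3, -1.05 and 0.33 for Irf1, -0.78 and 0.20 for Cxcr6, and -2.06 and 0.030 for Ccl3. They were -0.0090 and 0.46 for Il1rl1, -2.17 and 0.71 for Rgs1, -0.59 and 0.10 for Areg, -0.064 and 0.32 for Cd163, -0.61 and 0.47 for Mrc1, and -0.23 and 0.20 for Apoe. They were -0.45 and 0.67 for Mertk, -0.38 and 0.26 for Hpgds, -0.90 and 0.87 for Kit, -1.23 and 0.66 for Cd34, and -0.88 and 1.86 for Ear6. Both ends of each of these ranges came from leaving out a wild-type sham library. No calls were made at either end except for Irf8.

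With the replicate number as a replicate block, 0 genes were called, and Apoe (0.074), Kit (0.37) and Cd34 (0.031) turned to positive. Wild-type sham and ICH libraries of the same number correlated at -0.42 (replicate 2) and -0.13 (replicate 3) in their deviations from the group means. With 2 sham libraries these deviations mirror each other, and sham replicate 3 with ICH replicate 2 gave 0.42. The values thus cannot decide whether libraries of the same number belong together.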

Other observations

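A few genes of lipid mediator synthesis were in no list of their own and were picked after their values were seen. Alox5, the lipoxygenase that starts leukotriene synthesis, had values of 476 and 395 in wild-type sham and of 326, 299 and 306 in ICH. Alox5ap, its activating protein, had means of 991 ± 106 (SD, n = 2) and 747 ± 49.5 (SD, n = 3), and Ptgs1, the constitutive cyclooxygenase, had values of 311 and 372 in sham and of 297, 250 and 259 in ICH. In these 3 genes each ICH library was below both sham libraries, as in Ptgs2 and as in 14.1% of all tested genes. Lta4h, which makes leukotriene B4, overlapped, with 2086 ± 53.1 against 1706 ± 363, and so did Ltb4r1, its receptor, with 279 ± 26.1 against 305 ± 45.3. Hpgds, a prostaglandin D synthase, also overlapped, with 64.5 and 41.0 against 57.2, 35.7 and 58.3. None passed the limma test.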
